A study of Homo sapiens with 8 samples.

Results

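The KDM6A knockout of HEK293T cells was compared directly with the KMT2B knockout of the same line across all expressed genes. The comparison was between 4 of the 8 libraries of the series, the 2 labelled sgKDM6A and the 2 labelled sgKMT2B, chosen by their labels alone. The series holds 4 groups, and the group labelled sgKDM5C (2 libraries) is not described here. The fit behind the p-values used all 8 libraries, so the libraries outside the comparison also entered its estimate of the spread between replicates. HEK293T is a human embryonic kidney epithelial line, and poly(A) RNA was sequenced as read pairs from cells kept in serum-containing medium without any other treatment. In sgKDM6A cells a guide RNA was directed at KDM6A, in sgKMT2B cells at KMT2B, and the unedited line (WT, 2 libraries) is given beside them to show where the parent stood. The labels name no second allele or agent in any group, and all groups share the HEK293T background, a transformed line. They do not say where the guides cut, whether a knockout line was 1 clone or a pool, or whether the 2 libraries of a group came from separate cultures, so p-values measure only the spread between these libraries, which may be technical.

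The targeted enzymes act on different marks of the tail of histone H3. KDM6A (UTX) removes methyl groups from lysine 27, a mark that the Polycomb repressive complex PRC2 places on silent developmental genes, and it also works as a subunit of the KMT2C and KMT2D complexes. KMT2B (MLL2) adds methyl groups to lysine 4 at promoters, and it carries a CXXC zinc finger that binds unmethylated CpG dinucleotides. HOX genes are the classic targets of both systems, so the direct comparison shows on which genes the loss of one and the loss of the other leave different RNA levels.

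KDM6A was lowest in its own knockout. It stood at 10.3 and 11.5 CPM in the sgKDM6A libraries, against 65.8 and 56.8 CPM in the sgKMT2B libraries and 54.2 and 61.2 CPM in the parent (CPM, counts scaled to a common library total with TMM factors). KMT2B stood at 124 and 123 CPM in sgKDM6A, against 63.0 and 75.5 CPM in sgKMT2B and 146 and 137 CPM in WT. Neither pair of libraries overlapped for either gene, and the fitted log2 changes, sgKDM6A over sgKMT2B, were -2.48 (SE 0.13, adjusted p = 2.9e-08) for KDM6A and 0.84 (SE 0.11, adjusted p = 9.2e-05) for KMT2B. The counts cover whole genes, so the RNA that was left may come from edited transcripts. RNA of both targets was still detected in their own knockouts. KMT2B shares exon positions with IGFLR1 on the opposite strand, which was at most 0.512 CPM in these 4 libraries. Of the closest relatives, the H3K27 demethylase KDM6B was also lower in sgKDM6A, at 38.8 and 47.7 CPM against 70.1 and 88.5 CPM in sgKMT2B and 84.5 and 86.8 CPM in the parent (log2 change -0.87, SE 0.16, adjusted p = 0.00116). The H3K4 methyltransferase KMT2A did not pass the test (91.2 and 94.7 CPM in sgKDM6A, 105 and 103 CPM in sgKMT2B, log2 change -0.16, SE 0.11, adjusted p = 0.303).

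**Figure D1:**
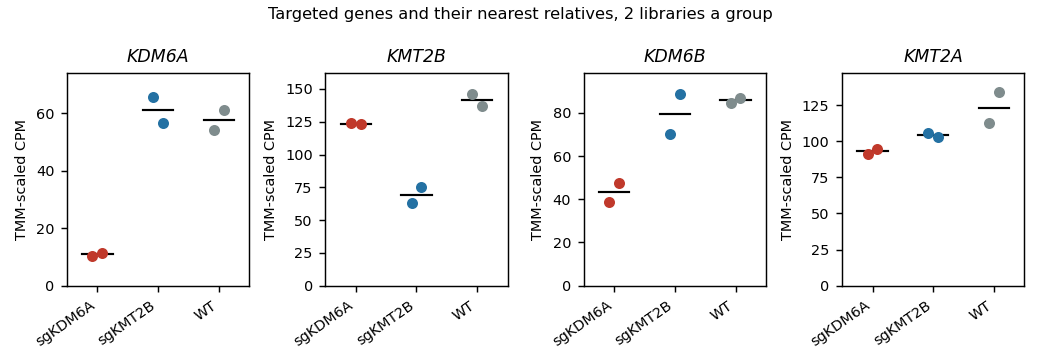
TMM-scaled CPM of KDM6A, KMT2B, KDM6B and KMT2A in the 2 libraries each of sgKDM6A, sgKMT2B and WT, with a point for each library and a bar at the group mean. KDM6A sits at 10.3 and 11.5 CPM in sgKDM6A, below every sgKMT2B and WT library, and KMT2B is lowest in sgKMT2B, at 63.0 and 75.5 CPM.

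The knockouts differed in 24.9% of the expressed genes. The quasi-likelihood test of edgeR, run on 17527 genes, called 4356 at an adjusted p under 0.05, of which 2166 were higher in sgKDM6A (12.4%) and 2190 were lower (12.5%), with a median log2 change of 0.00 over all tested genes. Changes of at least 2-fold numbered 788 upward and 708 downward. Against the shared WT libraries, sgKDM6A had 2201 genes called higher (12.6%) and 2558 lower (14.6%), 27.2% in all, and sgKMT2B had 2398 higher (13.7%) and 2533 lower (14.5%), 28.1% in all. WT stood apart in some genes. Immediate early and MAPK feedback genes summed to 6316 and 7715 CPM in WT. They summed to 1496 and 1732 CPM in sgKDM6A and 1650 and 2501 CPM in sgKMT2B. Against WT, of 43 tested, 17 were lower and 7 higher in sgKDM6A, and 17 lower and 6 higher in sgKMT2B. Whether a level below WT in both knockouts belongs to the knockouts or to the WT libraries was not tested. The 4 libraries compared held about 25152100 to 27591700 counts, and the WT libraries about 25099200 and 15868400. Replicates of the 4 groups correlated at r = 0.984 to 0.988 across genes in log CPM, and the first principal component placed the sgKDM6A libraries at -45.4 and -46.1, the sgKMT2B libraries at 60.8 and 60.4 and the WT libraries at -3.41 and -2.70. Leaving out 1 of the 4 libraries, so that a lone library is assumed to vary like the other groups, reduced the calls to between 2551 and 2900, the lowest without sgKMT2B replicate 2.

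Some genes were silent in one knockout and clearly expressed in the other. There were 45 called genes with at most 3 counts over both sgKDM6A libraries and at least 1 CPM in sgKMT2B, 25 of them at 0 counts, and 21 genes in the opposite state, 7 of them at 0. On the sgKDM6A side they included SLC7A3, a cationic amino acid transporter, with 0 counts in both sgKDM6A libraries against 21.5 and 23.3 CPM in sgKMT2B and 30.8 and 26.5 CPM in WT, at least 397-fold lower taking 3 counts for both libraries together as the floor. STRA6, the membrane receptor that takes up retinol, had 0 counts against 7.59 and 8.08 CPM in sgKMT2B and 1.78 and 2.79 CPM in WT, at least 139-fold lower. CSTF2T, a testis-enriched form of the cleavage stimulation factor subunit that processes the ends of mRNAs, showed the opposite state, with 12.0 and 10.4 CPM in sgKDM6A against 0 counts in sgKMT2B, at least 187-fold higher, and WT held 10.7 and 10.98 CPM. These bounds cover counting error only.

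The promoters of 4 genes with very large differences are shown because KMT2B is recruited to CpG-rich DNA and their CpG content differs widely. Each run is the 250 bases before the RefSeq start on the gene's own strand (GRCh38.p14), with every CpG in capitals. The first, of CSTF2T (chr10:51699596-51699845, minus strand), is from a gene high in sgKDM6A, and the others, of SPARC (chr5:151686916-151687165, minus strand), KRT8 (chr12:52926470-52926719, minus strand) and STRA6 (chr15:74212260-74212509, minus strand), are from genes low in sgKDM6A.
CSTF2T: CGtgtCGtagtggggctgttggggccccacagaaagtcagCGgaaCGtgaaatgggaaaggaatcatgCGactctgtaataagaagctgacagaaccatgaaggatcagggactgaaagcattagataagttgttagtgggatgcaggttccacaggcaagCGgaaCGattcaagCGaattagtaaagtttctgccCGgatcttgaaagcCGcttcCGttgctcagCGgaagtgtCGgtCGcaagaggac
SPARC: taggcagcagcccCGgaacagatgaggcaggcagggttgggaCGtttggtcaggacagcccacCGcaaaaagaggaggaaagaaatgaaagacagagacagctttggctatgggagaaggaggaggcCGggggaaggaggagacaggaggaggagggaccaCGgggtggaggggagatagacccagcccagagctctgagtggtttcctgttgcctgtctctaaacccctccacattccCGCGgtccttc
KRT8: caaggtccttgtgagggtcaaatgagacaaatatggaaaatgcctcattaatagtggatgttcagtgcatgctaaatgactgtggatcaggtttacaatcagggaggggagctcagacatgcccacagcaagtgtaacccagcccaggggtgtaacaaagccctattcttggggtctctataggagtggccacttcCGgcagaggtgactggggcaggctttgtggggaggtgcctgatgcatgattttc
STRA6: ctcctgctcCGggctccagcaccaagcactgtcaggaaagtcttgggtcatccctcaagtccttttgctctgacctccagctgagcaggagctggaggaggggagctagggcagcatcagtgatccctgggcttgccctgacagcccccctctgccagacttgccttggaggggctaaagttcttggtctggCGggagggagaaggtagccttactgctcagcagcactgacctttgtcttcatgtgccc
The printed runs held 14 CpG dinucleotides in CSTF2T, 7 in SPARC, 1 in KRT8 and 2 in STRA6. The annotated span of KRT8 reaches upstream to position 52949954, so the run shown may not be its only promoter. That of SPARC reaches to position 151687165, so its whole printed run lies within the annotated gene. Counted on RefSeq windows of 250 bases before to 50 after the start, the median was 26 CpG in the 12005 tested genes with a window, 26 in 541 windows of genes at least 2-fold higher in sgKDM6A and 17 in 464 windows of genes at least 2-fold lower. A window with at least 10 CpG was found for 87.8% of all tested genes, 84.5% of the higher and 65.1% of the lower genes. These are descriptions of windows, and binding or methylation was not measured here.

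Among the 15 largest increases that the rule for named genes took, 8 had WT between the knockouts and nearer to sgKDM6A, 2 had WT outside the range and nearer to sgKDM6A, and 5 had WT nearer to sgKMT2B. PLXDC2, a transmembrane protein with a plexin-like domain, was at 18.3 and 17.4 CPM in sgKDM6A, against 0.20 and 0.47 CPM in sgKMT2B and 1.36 and 1.30 CPM in the parent (log2 change 5.70, SE 0.32, adjusted p = 4.68e-08). CA2, a carbonic anhydrase, was at 70.8 and 74.4 CPM against 1.97 and 2.25 CPM, with WT higher than both at 166 and 185 CPM (log2 change 5.10, SE 0.14, adjusted p = 5.94e-11). PLXDC2 was thus above the WT level in sgKDM6A and below it in sgKMT2B, and CA2 was below it in both. RPRM, a p53-induced inhibitor of the G2 to M transition, was at 53.5 and 43.1 CPM against 1.97 and 0.95 CPM in sgKMT2B, where it was close to WT at 1.03 and 1.95 CPM (log2 change 5.05, SE 0.29, adjusted p = 6.66e-08). GFRA1, the receptor for GDNF, was at 11.5 and 10.5 CPM against 0.36 and 0.39 CPM, with WT at 11.03 and 11.3 CPM (log2 change 4.84, SE 0.24, adjusted p = 1.37e-08).

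Other increases by this rule were MMP16 (a membrane-bound matrix metalloproteinase), HSPA1B, LYPD1, the quinone reductase CRYZ, the chemokine receptor CXCR4, the heparan sulfate sulfotransferase HS6ST3 and NELL2, with fitted log2 changes of 4.98 to 6.69. In HSPA1B 1 library carried much of the value. This gene, an inducible heat shock protein whose reads cannot be separated from its near-identical copy, was at 1.07 and 18.8 CPM in sgKDM6A, and without sgKDM6A replicate 2 its log2 change went down to 2.90, against 6.11 with all libraries. Both sgKDM6A libraries were above both sgKMT2B libraries, which were at 0.080 and 0.20 CPM.

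Among the 15 largest decreases, WT was nearer to sgKMT2B in 11 and nearer to sgKDM6A in 4. SPARC, a secreted collagen-binding matrix glycoprotein, had 3 counts over the sgKDM6A libraries (0.079 and 0.036 CPM), against 91.5 and 102 CPM in sgKMT2B and 28.3 and 37.2 CPM in WT, a ratio of 1720 (95% counting interval 588 to 8340). COL3A1, the chain of type III collagen, was at 0.079 and 0.11 CPM against 40.3 and 46.1 CPM in sgKMT2B, with WT at 1.32 and 1.69 CPM (log2 change -8.77, SE 0.34, adjusted p = 1.27e-09). For both genes WT lay between the knockouts, so sgKDM6A stood below and sgKMT2B above the parent. ADM2, a secreted peptide of the calcitonin family, was at 0.040 and 0.071 CPM against 20.4 and 16.3 CPM in sgKMT2B and 7.72 and 9.68 CPM in WT, a ratio of 325 (95% counting interval 111 to 1580). STING1, the adaptor of cytosolic DNA sensing, was at 0.24 and 0 CPM against 14.7 and 16.8 CPM, with WT at 1.49 and 1.17 CPM (log2 change -7.06, SE 0.48, adjusted p = 2.87e-07). Only replicate 1 of sgKDM6A held STING1 counts, so no fold is given without it. CLCN4, a chloride-proton exchanger, stood out for its WT level, which was 0.083 and 0.52 CPM, beside 0.079 and 0.46 CPM in sgKDM6A and 14.5 and 16.2 CPM in sgKMT2B (log2 change -5.76, SE 0.50, adjusted p = 2.73e-06). The rest were SERPINB9, SAGE1, PUDP, STS, ZNF83, SNCG, NUPR1 and SULT1A1, the last of which has near-identical copies and is uncertain.

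**Figure D2:**
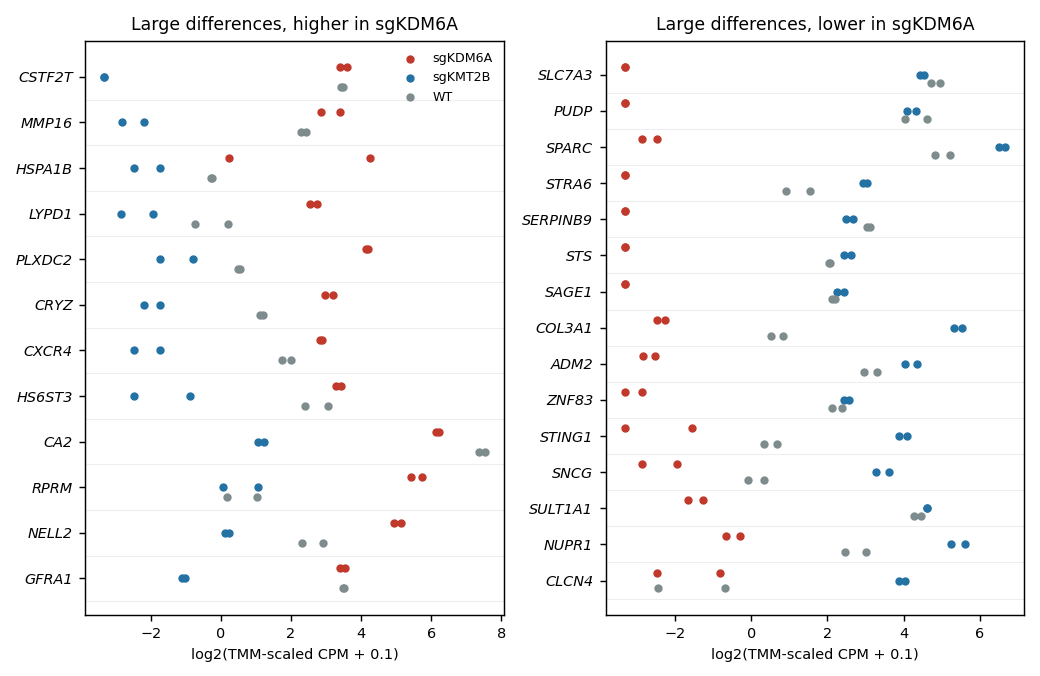
Levels, as log2 of TMM-scaled CPM plus 0.1, of 12 of the genes with the largest increases (left) and the 15 with the largest decreases (right) in sgKDM6A over sgKMT2B, a point for each library of sgKDM6A, sgKMT2B and WT. No sgKDM6A point overlaps a sgKMT2B point in any row, WT sits with sgKDM6A for GFRA1 and with sgKMT2B for SLC7A3 and SAGE1, and the sgKDM6A points of HSPA1B lie far apart.

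Several silent genes were neighbours. PUDP, a pseudouridine phosphatase (chrX:7048920-7148190), and STS, steroid sulfatase (chrX:7219456-7354810, both GRCh38), had 0 counts in sgKDM6A, against means of 18.4 and 5.69 CPM in sgKMT2B, and were at least 326-fold and 101-fold lower. On one side PRKX was at 45.3 CPM in sgKDM6A against 49.6 CPM in sgKMT2B and did not pass (adjusted p = 0.423). ENSG00000285756, between PRKX and PUDP, was at 23.0 against 22.9 CPM (adjusted p = 0.971). On the other side TBL1X was at 80.2 against 167 CPM (log2 change -1.06, SE 0.13, adjusted p = 4.37e-05). Beyond TBL1X, SHROOM2 was higher in sgKDM6A, at 6.91 against 1.19 CPM (log2 change 2.53, SE 0.31, adjusted p = 6.14e-05). WWC3, the next gene, was lower, at 3.72 against 7.29 CPM (log2 change -0.97, SE 0.20, adjusted p = 0.00316). The cancer-testis genes SAGE1 and CT45A10, also on the X chromosome, had 0 counts in sgKDM6A, against 4.70 and 5.36 CPM and 3.45 and 3.67 CPM in sgKMT2B. Neighbours that were low in sgKMT2B lay on other chromosomes. CRYZ and TYW3 share exon positions on opposite strands of chromosome 1. They averaged 8.36 and 11.3 CPM in sgKDM6A against 0.16 and 0.44 CPM in sgKMT2B, where they still held 8 and 22 counts. The parent averaged 2.13 and 2.95 CPM, so sgKDM6A stood above it and sgKMT2B below it. The type IV collagen chains COL4A4 and COL4A3, which adjoin on chromosome 2, had 2 counts each over the sgKMT2B libraries against 251 and 71 counts in sgKDM6A. PRKG1, whose span holds CSTF2T, was also lower in sgKMT2B, at 12.4 CPM in sgKDM6A against 3.26 CPM (log2 change 1.92, SE 0.20, adjusted p = 1.25e-05). Whether DNA was lost at any of these places was not tested.

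HOX genes, the homeobox factors that set position along the body axis, were mostly higher in sgKDM6A in every cluster. Of 11 tested HOXA genes 9 were higher in sgKDM6A and 0 lower (median log2 change 1.11), of 9 HOXB genes 8 were higher and 1 lower (median 1.46), of 9 HOXC genes 5 were higher and 0 lower (0.81), and of 9 HOXD genes 5 were higher and 0 lower (0.92). Over all tested genes 12.4% were higher and 12.5% lower. HOXB6 averaged 62.1 ± 4.00 CPM in sgKDM6A and 10.1 ± 0.961 CPM in sgKMT2B (mean ± SD, n = 2 each; log2 change 2.62, SE 0.15, adjusted p = 4.54e-08), and WT averaged 37.9 CPM. HOXB9, the HOX gene with the most CPM in WT, was at 303 ± 18.4 CPM and 110 ± 4.56 CPM, with WT at 291 CPM (log2 change 1.46, SE 0.09, adjusted p = 1.42e-07). HOXA11, a limb and kidney gene, was at 47.3 ± 2.38 CPM and 21.9 ± 0.690 CPM, both below WT at 77.0 CPM (log2 change 1.11, SE 0.12, adjusted p = 1.29e-05). HOXC9 was at 21.2 ± 2.06 CPM and 6.98 ± 0.215 CPM, with WT at 10.2 CPM (log2 change 1.60, SE 0.16, adjusted p = 1.11e-05). HOXD10 was at 38.4 ± 0.587 CPM and 20.2 ± 0.600 CPM, with WT at 25.6 CPM (log2 change 0.93, SE 0.14, adjusted p = 0.000233).

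The clusters differed in where the parent stood. Against WT, HOXA genes were 1 higher and 3 lower in sgKDM6A and 0 higher and 8 lower in sgKMT2B, and HOXB genes 6 higher and 0 lower in sgKDM6A and 1 higher and 6 lower in sgKMT2B. HOXC genes were 5 higher and 0 lower in sgKDM6A and 0 higher and 2 lower in sgKMT2B, and HOXD genes 4 higher and 1 lower in sgKDM6A and 1 higher and 2 lower in sgKMT2B. The knockouts share the WT libraries in these counts. Over all tested genes, 27.2% were called in sgKDM6A against WT and 28.1% in sgKMT2B against WT. For sgKMT2B the HOXC share was 22.2% and the HOXD share 33.3%, near that of all genes. The exception in the direct comparison was HOXB13, at the far end of its cluster, which was 41.8 ± 0.919 CPM in sgKDM6A and 53.02 ± 3.08 CPM in sgKMT2B (log2 change -0.34, SE 0.12, adjusted p = 0.0478) and was not called when any 1 of the 4 libraries was left out. With 1 library left out, 7 to 8 HOXA, 7 to 8 HOXB, 4 HOXC and 3 to 5 HOXD genes were called higher, the 3 without sgKMT2B replicate 1, and at most 1 HOXC gene was called lower. HOX genes overlap antisense transcripts and, in part, each other, and whether the counting used strand is not stated, so a single HOX gene's value may hold reads of its neighbours.

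**Figure D3:**
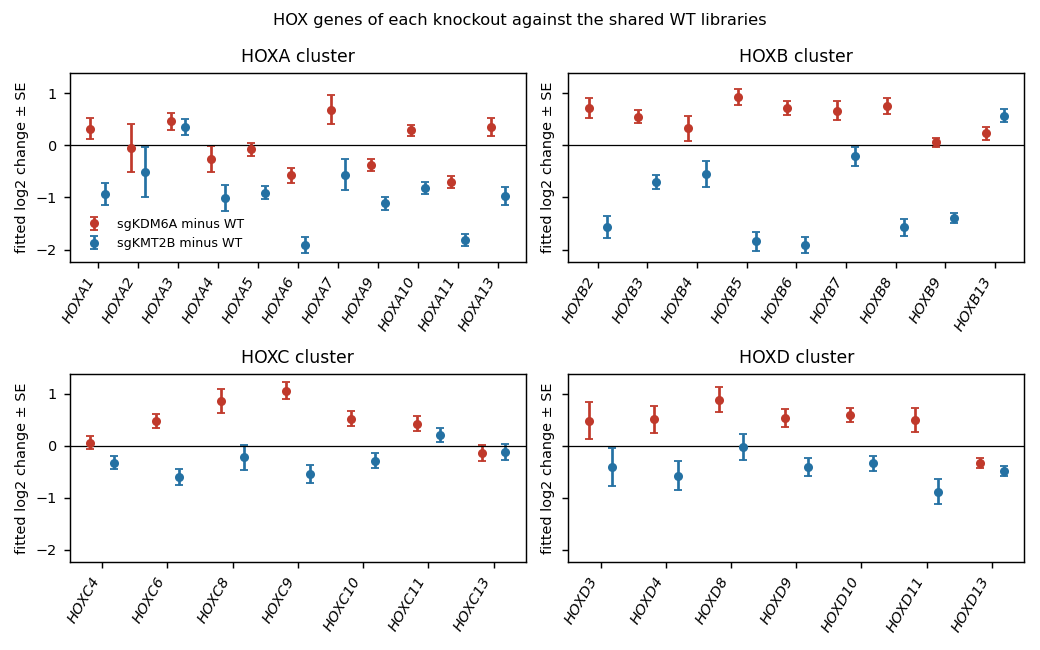
Fitted log2 change, with its SE as the bar, of the 34 of 38 tested HOX genes that reached a mean of 1 CPM in sgKDM6A, sgKMT2B or WT, for sgKDM6A minus WT (red) and sgKMT2B minus WT (blue), by cluster and in order along it. In HOXB the red points lie at or above and most blue points below the line at 0, and HOXB6 has the lowest blue point of that cluster at -1.91.

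Other developmental lists were mixed. The share called was 40% for pluripotency, 35% for kidney lineage, 52.6% for retinoic acid and 34.5% for other nuclear receptor genes. It was 24.9% over all tested genes. Of 10 tested pluripotency genes 4 were higher and 0 lower (median 0.39), and they included ESRRB, an orphan nuclear receptor, UTF1 and TFCP2L1. ESRRB was at 16.2 and 15.97 CPM in sgKDM6A against 0.96 and 2.01 CPM in sgKMT2B, with WT at 15.8 and 16.2 CPM (log2 change 3.43, SE 0.25, adjusted p = 4.75e-07). UTF1 and TFCP2L1 were below WT in both knockouts, and without sgKMT2B replicate 1 only 2 of the 4 were called. Of 20 kidney lineage genes 4 were higher and 3 lower (median -0.02), with 1 lower without sgKDM6A replicate 1 or sgKMT2B replicate 2. LRP2 (megalin), the endocytic receptor of the kidney tubule, was at 31.6 and 39.3 CPM against 1.77 and 1.93 CPM, with WT at 41.3 and 44.4 CPM (log2 change 4.26, SE 0.17, adjusted p = 2.19e-09), while EYA1, a cofactor of early kidney formation, averaged 5.34 ± 0.0730 CPM in sgKDM6A and 12.3 ± 0.312 CPM in sgKMT2B (log2 change -1.20, SE 0.18, adjusted p = 0.000304). In the retinoic acid pathway 5 of 19 genes were higher and 5 lower (median -0.23). ALDH1A2, which makes retinoic acid, averaged 105 ± 4.26 CPM in sgKDM6A and 19.3 ± 0.837 CPM in sgKMT2B (log2 change 2.44, SE 0.11, adjusted p = 7.03e-09), while the binding protein CRABP2 was at 44.6 ± 0.484 CPM and 131 ± 25.98 CPM (log2 change -1.55, SE 0.13, adjusted p = 2.09e-06). Among 29 other nuclear receptors 8 were higher and 2 lower, among them the mineralocorticoid receptor NR3C2 (17.2 ± 2.62 CPM and 2.66 ± 0.639 CPM, log2 change 2.69, SE 0.23, adjusted p = 2.16e-06). Without sgKMT2B replicate 1, 4 receptors were called higher, and 0 were called lower when any 1 of the 4 libraries was left out.

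Targets of p53 and cell cycle inhibitors were mostly lower in sgKDM6A. The test called 63.6% of them, against 24.9% of all tested genes. Of 33 tested genes 19 were lower and 2 higher (median -0.83), and against WT they were 3 higher and 13 lower in sgKDM6A and 16 higher and 2 lower in sgKMT2B. CDKN1A (p21), an inhibitor of cyclin-dependent kinases, averaged 38.5 ± 0.835 CPM in sgKDM6A and 186 ± 21.0 CPM in sgKMT2B, with WT between them at 103 CPM (log2 change -2.27, SE 0.13, adjusted p = 4.37e-08). PHLDA3, an inhibitor of AKT signalling, was at 23.5 ± 0.482 CPM and 96.2 ± 1.38 CPM, with WT at 21.6 CPM (log2 change -2.03, SE 0.11, adjusted p = 2.9e-08). GDF15, a stress-induced cytokine, was at 2.47 ± 0.208 CPM and 28.4 ± 8.20 CPM, with WT at 10.7 CPM (log2 change -3.52, SE 0.28, adjusted p = 1.07e-06). The ubiquitin ligase MDM2 was at 77.1 ± 3.46 CPM and 137 ± 1.48 CPM, both above WT at 52.8 CPM (log2 change -0.83, SE 0.10, adjusted p = 3.74e-05). BTG2, ZMAT3, FDXR, SESN1, DDB2 and TP53INP1 were lower as well, by 1.10 to 1.66 on the log2 scale. The 2 members that were higher were RPRM and PMAIP1 (NOXA, a pro-apoptotic protein, 157 ± 8.31 CPM and 79.5 ± 4.81 CPM). HEK293T cells carry the SV40 large T antigen, which binds p53. With 1 library left out, 17 to 19 members were called lower.

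Genes of the amino acid response that ATF4 drives, among them amino acid transporters, synthetases and stress regulators, were also lower. The test called 52.6% of them, against 24.9% of all tested genes. Of 38 tested 20 were lower and 0 higher (median -0.42), and against WT 8 were higher and 12 lower in sgKDM6A, and 17 higher and 2 lower in sgKMT2B. ATF4 itself did not pass (682 ± 127 CPM in sgKDM6A, 889 ± 41.3 CPM in sgKMT2B, adjusted p = 0.0982). Beside SLC7A3 and ADM2, NUPR1, a stress-induced chromatin protein, was at 0.71 and 0.54 CPM in sgKDM6A against 49.3 and 38.2 CPM in sgKMT2B, with WT at 5.41 and 7.93 CPM (log2 change -6.13, SE 0.34, adjusted p = 3.99e-08). The cystine transporter SLC7A11 was at 44.7 ± 15.4 CPM and 121 ± 11.1 CPM, with WT at 39.6 CPM (log2 change -1.43, SE 0.20, adjusted p = 0.000132). The mitochondrial enzyme PCK2 was at 109 ± 2.57 CPM and 207 ± 2.11 CPM, with WT at 204 CPM (log2 change -0.92, SE 0.10, adjusted p = 1.3e-05). PCK2 was therefore below the parent in sgKDM6A, and SLC7A11 above it in sgKMT2B. CHAC1, which degrades glutathione, was above WT in both knockouts, at 21.3 ± 13.9 CPM in sgKDM6A and 58.6 ± 9.49 CPM in sgKMT2B against 3.48 CPM in WT. Without sgKDM6A replicate 2, 13 members were called lower, and with the other libraries left out in turn up to 25.

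Promoter sites of the kind that ATF4 binds as a dimer with C/EBP factors are shown for the 4 called genes that hold one. The motif searched was TGATGNAA on both strands, chosen with these results known, and it was present in 6 of 32 windows of the amino acid response genes (18.8%), in 4 of 15 of those called lower, in 1.63% of windows of all tested genes and in 3.67% of all RefSeq windows. The runs are ASNS, asparagine synthetase (chr7:97872453-97872492, minus strand), CHAC1 (chr15:40953246-40953285, plus strand), AARS1, an alanyl-tRNA synthetase (chr16:70289670-70289709, minus strand), and FGF21, a stress hormone (chr19:48755454-48755493, plus strand), from RefSeq on GRCh38.p14 with the motif, on either strand, in capitals.
ASNS: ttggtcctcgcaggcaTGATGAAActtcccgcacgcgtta
CHAC1: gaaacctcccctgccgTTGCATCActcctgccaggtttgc
AARS1: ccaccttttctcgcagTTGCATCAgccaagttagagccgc
FGF21: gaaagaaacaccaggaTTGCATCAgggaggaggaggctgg
ASNS averaged 6.28 ± 0.416 CPM in sgKDM6A and 11.5 ± 0.661 CPM in sgKMT2B (log2 change -0.87, SE 0.20, adjusted p = 0.00558), and AARS1 at 613 ± 33.9 CPM and 773 ± 6.79 CPM (log2 change -0.34, SE 0.08, adjusted p = 0.00971). A match of these letters does not show that a factor bound there. The list was made of genes that ATF4 drives, so its excess of the motif over all genes may follow from that choice. The excess is no result of these libraries.

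Extracellular matrix genes were lower more often than higher. The share called was 61.3% for collagens and 57.7% for other matrix genes and proteases, against 24.9% of all tested genes. Of 31 tested collagens 14 were lower and 5 higher (median -0.45), and of 71 other matrix genes and proteases 30 were lower and 11 higher (median -0.38). COL5A1 averaged 21.0 ± 1.86 CPM in sgKDM6A and 75.1 ± 0.0283 CPM in sgKMT2B (log2 change -1.84, SE 0.13, adjusted p = 3.31e-07), and COL6A2 at 86.7 ± 0.945 CPM and 208 ± 11.2 CPM (log2 change -1.26, SE 0.09, adjusted p = 6e-07). FBLN1, a fibulin of elastic fibres, was at 116 ± 7.14 CPM and 285 ± 21.3 CPM (log2 change -1.30, SE 0.09, adjusted p = 3.98e-07). The cross-linking enzyme LOX went the other way, at 15.2 ± 1.46 CPM and 2.05 ± 0.225 CPM (log2 change 2.89, SE 0.20, adjusted p = 3.84e-07). The higher count of matrix genes was 7 without sgKDM6A replicate 2 and 6 without sgKMT2B replicate 1. Fibroblast markers moved with these genes, but most of their summed CPM came from collagens, so they are no separate sign. COL1A1 was at 24.4 and 22.3 CPM in sgKDM6A and 37.9 and 44.0 CPM in sgKMT2B. COL3A1, described above, was at 40.3 and 46.1 CPM in sgKMT2B. The 10 markers summed to 25.5 and 23.7 CPM in sgKDM6A, 81.9 and 94.9 CPM in sgKMT2B and 55.9 and 58.2 CPM in WT, 5 of the 6 that were tested being called lower and 0 higher, COL1A2 and FAP were at 0 in all 4 libraries compared, and their part in the result was not tested. Summed endothelial markers (1.03 and 1.54 CPM in sgKDM6A, 1.61 and 2.29 CPM in sgKMT2B) and blood markers (4.72 and 4.64 CPM, and 4.50 and 4.34 CPM) were low in both. In bulk RNA, fewer cells of a type and less RNA per cell cannot be told apart.

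Genes of the YAP and TEAD list, many tied to cell shape and adhesion, were lower in 15 of 29 and higher in 0 (median -0.44). This was 51.7% called, against 24.9% of all tested genes. Against WT, 0 were higher and 14 lower in sgKDM6A, and 6 higher and 5 lower in sgKMT2B. The list holds target genes and also the factors TEAD1 to TEAD4. Of these factors, TEAD1, TEAD2 and TEAD3 were called lower in the direct comparison. CCN2, a secreted matricellular protein, averaged 4.13 ± 0.888 CPM in sgKDM6A and 15.97 ± 0.375 CPM in sgKMT2B, with WT at 25.7 CPM (log2 change -1.95, SE 0.18, adjusted p = 5.05e-06). ANKRD1, a muscle ankyrin protein, was at 1.37 ± 0.0323 CPM and 10.4 ± 3.57 CPM, with WT at 14.0 CPM (log2 change -2.91, SE 0.34, adjusted p = 3.15e-05). CCN2 was below WT in both knockouts and lowest in sgKDM6A, whereas ANKRD1 passed the test against WT in sgKDM6A alone (adjusted p = 0.264 for sgKMT2B against WT). AJUBA, a LIM protein of cell junctions, was at 40.5 ± 3.61 CPM and 101 ± 10.5 CPM, with WT at 47.6 CPM (log2 change -1.32, SE 0.13, adjusted p = 9.34e-06).

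Epithelial and mesenchymal genes had no common direction. The share called was 50% for the epithelial and 48.4% for the mesenchymal genes, against 24.9% of all tested genes. Of 26 epithelial adhesion genes and keratins 6 were higher and 7 lower, and of 31 mesenchymal genes 6 were higher and 9 lower. Only 3 epithelial genes were called higher without sgKDM6A replicate 1 or sgKMT2B replicate 2, and 3 mesenchymal genes without sgKDM6A replicate 2 or sgKMT2B replicate 1. KRT8, a keratin of simple epithelia, was at 5.15 and 5.61 CPM in sgKDM6A, against 247 and 265 CPM in sgKMT2B and 59.9 and 61.3 CPM in the parent (log2 change -5.57, SE 0.12, adjusted p = 5.1e-12). KRT18, its filament partner, was at 69.1 and 59.9 CPM against 61.0 and 64.8 CPM and did not pass (log2 change 0.04, SE 0.10, adjusted p = 0.846). The 2 genes share exon positions on opposite strands. SNAI2 (SLUG), a repressor of epithelial genes, was at 9.56 ± 0.0156 CPM and 82.0 ± 5.34 CPM, with WT at 17.0 and 23.3 CPM (log2 change -3.10, SE 0.17, adjusted p = 3.21e-08). The HEK293T-like markers summed to 1088 CPM in both sgKDM6A libraries, against 1225 and 1310 CPM in sgKMT2B and 1269 and 1138 CPM in WT. This sum hides changes of its members. Against WT, of 9 tested, 1 was higher and 4 lower in sgKDM6A, and 3 were higher and 6 lower in sgKMT2B. NEFM was at 5.58 and 5.72 CPM in WT, 0 in both sgKDM6A libraries, and 0 and 0.079 CPM in sgKMT2B.

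Neuronal genes, which HEK293T cells are known to express in part, were mixed. Against 24.9% of all tested genes, 43.75% of neuronal cytoskeleton, 63.6% of neuronal adhesion and 46.4% of NOTCH genes were called. Of 32 genes of the neuronal cytoskeleton and synaptic vesicles 11 were higher and 3 lower (median 0.43), with INA, an intermediate filament, at 31.6 ± 8.09 CPM in sgKDM6A and 9.99 ± 0.585 CPM in sgKMT2B (log2 change 1.66, SE 0.19, adjusted p = 2.85e-05) and NEFL, the light neurofilament chain, at 18.3 ± 0.838 CPM and 6.66 ± 1.12 CPM (log2 change 1.46, SE 0.19, adjusted p = 8.64e-05). Without sgKMT2B replicate 1, 6 of them were called higher. Of 33 neuronal adhesion and guidance receptors 10 were higher and 11 lower. The cell adhesion molecule NCAM1 was at 21.4 ± 2.04 CPM and 3.49 ± 0.638 CPM (log2 change 2.62, SE 0.20, adjusted p = 9e-07), and FLRT3, a guidance receptor, at 3.03 ± 0.522 CPM and 17.8 ± 1.53 CPM (log2 change -2.55, SE 0.23, adjusted p = 3.67e-06). Among 28 NOTCH genes 7 were higher (4 without sgKDM6A replicate 2) and 6 lower, and the effectors did not share a direction. The effector HES1 was higher in sgKDM6A (68.5 ± 2.64 CPM and 23.3 ± 2.95 CPM), whereas the effector HEY1 was lower (log2 change -0.86). The NOTCH ligand gene JAG1 was also lower (7.65 ± 0.508 CPM and 17.97 ± 0.327 CPM).

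Sterol and fatty acid synthesis genes were more often higher, 13 of 35 against 2 lower (median 0.22), among them FASN, the fatty acid synthase, at 1413 ± 37.8 CPM in sgKDM6A and 992 ± 71.6 CPM in sgKMT2B (log2 change 0.51, SE 0.08, adjusted p = 0.000541). This count fell to 4 without sgKDM6A replicate 2, 4 without sgKMT2B replicate 1 and 5 without sgKMT2B replicate 2, and the lower count was 4 without sgKMT2B replicate 1. Cytosolic ribosomal protein genes were lower in 19 of 79 and higher in 5, with a median of only -0.07, and the lower count was 5 to 16 with 1 library left out, under 10 without sgKDM6A replicate 1 (9), sgKDM6A replicate 2 (6) and sgKMT2B replicate 2 (5). Of 26 cytosolic heat shock chaperones 6 were higher and 5 lower (median 0.18). The small chaperone HSPB1 was at 12.9 ± 0.199 CPM and 60.8 ± 3.57 CPM (log2 change -2.24, SE 0.12, adjusted p = 2.19e-08), and HSP90AA1 at 1775 ± 17.4 CPM and 1063 ± 21.8 CPM (log2 change 0.74, SE 0.09, adjusted p = 3.95e-05). In G2 and M phase, 3 of 52 genes were higher, 1 without sgKMT2B replicate 1, and 1 was lower. Called were 42.9% of the sterol and fatty acid genes, 30.4% of the ribosomal protein genes and 42.3% of the heat shock chaperones. Over all tested genes the share was 24.9%, and G2 and M phase genes, at 7.69%, were below it.

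**Figure D4:**
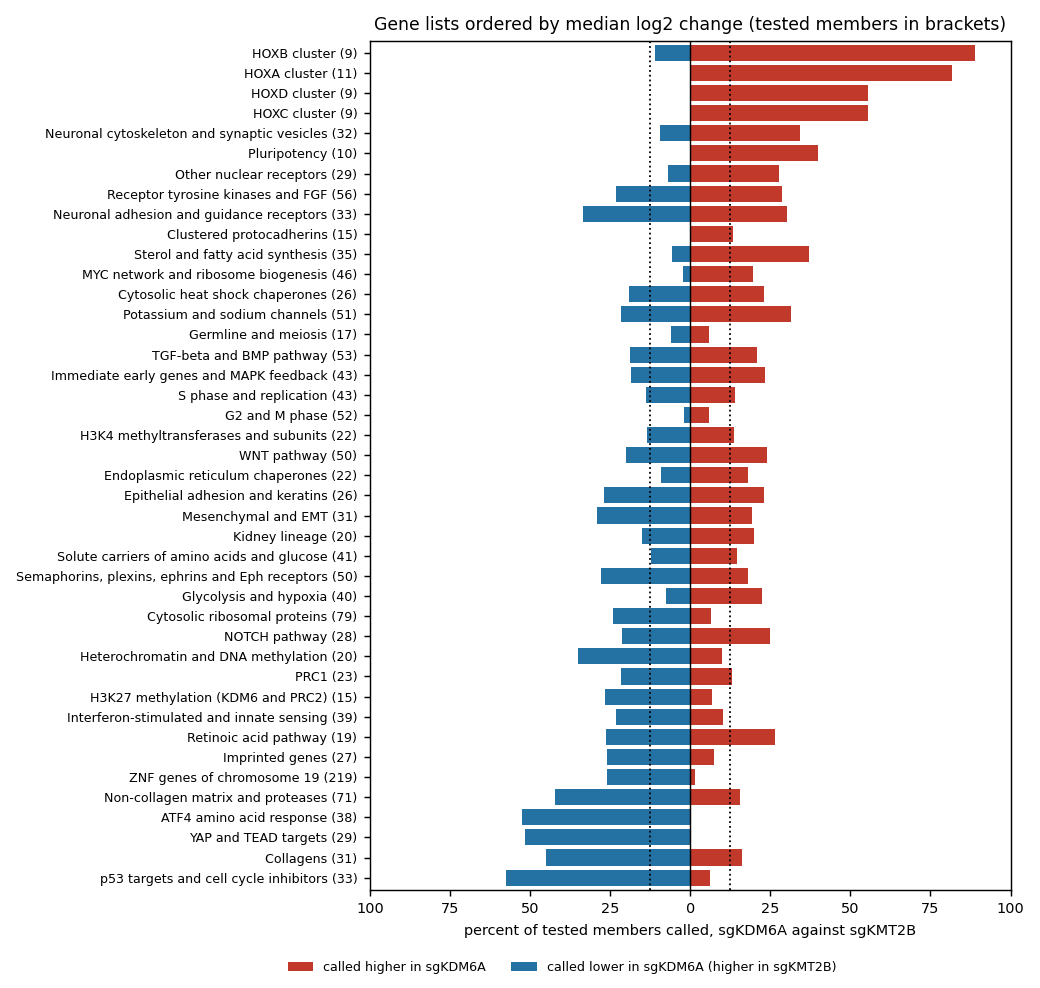
Percent of the tested members of each gene list that were called higher (red, right) or lower (blue, left) in sgKDM6A over sgKMT2B, lists ordered by median log2 change with the number of tested members in brackets and dotted lines at the 12.4% and 12.5% of all tested genes. The 4 HOX clusters lie at the top with 9 of 11 HOXA and 8 of 9 HOXB genes higher, and the p53, collagen, YAP and ATF4 lists lie at the bottom, with 0 YAP and 0 ATF4 members higher.

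Chromatin genes of the targeted pathways differed in a few members. Called were 33.3% of the H3K27 methylation genes, 27.3% of the H3K4 methyltransferase genes and 45% of the heterochromatin genes, against 24.9% of all. Of 15 tested genes of H3K27 methylation 1 was higher and 4 lower, and besides KDM6A and KDM6B they included RBBP7, a histone-binding PRC2 subunit (228 ± 10.8 CPM in sgKDM6A and 366 ± 1.196 CPM in sgKMT2B, log2 change -0.68, SE 0.08, adjusted p = 5.94e-05), and PHF19, a Polycomb-like subunit (78.1 ± 3.80 CPM and 51.2 ± 2.54 CPM, log2 change 0.61, SE 0.11, adjusted p = 0.00117). PHF19 lay in a block of 25 neighbouring genes whose median log2 change was 0.44. Of 22 H3K4 methyltransferase genes 3 were higher and 3 lower, KMT2B among the higher. The higher count was 1 without sgKMT2B replicate 2, and the lower count 1 without any 1 of the other 3 libraries. Of 20 heterochromatin and DNA methylation genes 2 were higher and 7 lower, including the DNA methyltransferase DNMT3B (54.6 ± 2.29 CPM and 86.2 ± 3.44 CPM, log2 change -0.66, SE 0.11, adjusted p = 0.000639), whose block of neighbours had a median of -0.45. The lower count was 3 without sgKDM6A replicate 1 or sgKMT2B replicate 2 and 2 without either of the others. Of 219 tested ZNF genes on chromosome 19, many of which encode KRAB repressors of transposable elements, 3 were higher and 57 lower (median -0.28), with 47 higher and 16 lower in sgKDM6A against WT and 101 higher and 6 lower in sgKMT2B against WT. The lower count in the direct comparison was 36 without either sgKDM6A library and 28 without sgKMT2B replicate 1, and 1 gene was called higher without either sgKMT2B library.

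Whole chromosomes and long blocks of genes also differed. Where expression averaged 5 CPM or more, the median log2 change, sgKDM6A over sgKMT2B, was 0.52 on chromosome 13 (197 genes, 89.8% of them positive), 0.35 on chromosome 10, 0.35 on chromosome 9 and 0.19 on chromosome 18, and it was -0.35 on chromosome 21 and -0.30 on chromosome 20. The knockout that left the WT level differed between them. On chromosome 13 the median against WT was 0.11 in sgKDM6A and -0.39 in sgKMT2B, on chromosome 10 it was 0.00 and -0.33, on chromosome 20 it was 0.01 and 0.30, on chromosome 9 it was 0.28 and -0.02, and on chromosome 21 it was -0.21 and 0.05. DNA copy number was not measured here. Of 439 blocks of 25 neighbouring expressed genes 112 had a median beyond 0.2 in either direction, KMT2B lying in one of them with a block median of 0.29.

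**Figure D5:**
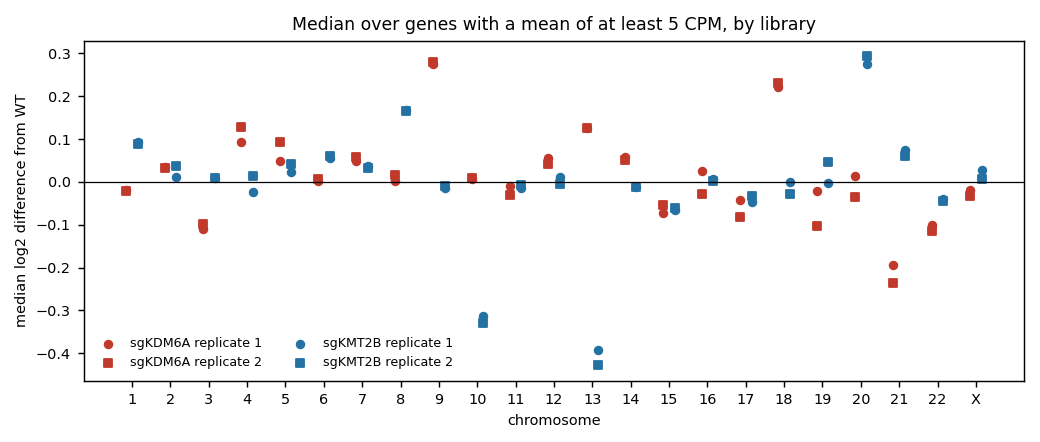
Median log2 difference from the WT mean of genes averaging 5 CPM or more on each chromosome, for each sgKDM6A library (red) and each sgKMT2B library (blue), replicate 1 as circles and replicate 2 as squares. Both sgKMT2B libraries lie low on chromosome 13, at -0.39 and -0.43, and on chromosome 10, both sgKDM6A libraries lie high on chromosome 9, at 0.27 and 0.28.

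The group counts were repeated without members in such blocks, an alternative chosen after seeing the data. All tested genes outside them had 1260 higher and 1291 lower of 13064 (19.5% called). HOXA, HOXB and HOXD counts were the same, since no member lay in a shifted block, while all 9 HOXC genes lay in one. A block median includes the members themselves, and that of the HOXC block, 0.22, was the log2 change of HOXC11. Families of adjoining genes, such as HOXC and the chromosome 19 ZNF genes, can thus shift their own block. For them this count does not separate a regional shift from their own change. Outside the blocks, p53 targets were 1 higher and 14 lower of 23, and ATF4 genes 0 higher and 17 lower of 29. Genes of the YAP and TEAD list were 0 higher and 9 lower of 21, and collagens 3 higher and 9 lower of 21. Other matrix genes were 9 higher and 21 lower of 52, and sterol and fatty acid genes 10 higher and 0 lower of 26. Ribosomal protein genes were 2 higher and 10 lower of 58, and chromosome 19 ZNF genes 3 higher and 25 lower of 136. H3K4 methyltransferase genes were then 0 higher and 1 lower of 12 (8.33% called), heterochromatin genes 0 higher and 4 lower of 13, H3K27 methylation genes 0 higher and 3 lower of 11 and G2 and M phase genes 1 higher and 0 lower of 41. Mesenchymal genes were 2 higher and 4 lower of 21, epithelial genes 5 higher and 6 lower of 20, neuronal cytoskeleton genes 7 higher and 2 lower of 24, neuronal adhesion genes 7 higher and 9 lower of 27, and NOTCH genes 6 higher and 5 lower of 25. Pluripotency genes were 4 higher and 0 lower of 7, kidney genes 3 higher and 2 lower of 17, retinoic acid genes 4 higher and 3 lower of 12, other nuclear receptors 6 higher and 1 lower of 21, and heat shock chaperones 4 higher and 5 lower of 21. Among genes described above, COL6A2, PHLDA3, BTG2, CRABP2, GDF15 and SNAI2 were lower and lay in blocks with medians of -0.51, -0.44, -0.44, -0.45, -0.38 and -0.27, and INA was higher in a block with a median of 0.47. Of the large single differences, CA2, SPARC, COL3A1 and SLC7A3 lay in blocks with medians between -0.03 and 0.08, whereas CSTF2T, PLXDC2 and HS6ST3 lay in blocks with medians of 0.53, 0.45 and 0.40, and PUDP and STS in one with a median of -0.32.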

How the data were processed

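Poly(A) RNA of HEK293T cells was read as 150-base pairs per the labels' protocols, and the authors deposited 1 table of raw gene counts for the 8 libraries, for which the submitters' processing notes name STAR, HTSeq 0.11.2 and GRCh38. Annotation release and strand setting: not given in the sources used here, so antisense and near-identical genes are uncertain. Of 60617 identifiers 60596 had a symbol, and coordinates came from GENCODE v29 for 58542.

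The deposited counts were tested with edgeR 4.0.16 (R 4.3.3; glmQLFit and glmQLFTest, two-sided) on all 8 libraries with 1 coefficient per group, TMM factors and filterByExpr by group, which left 17527 genes. P-values were adjusted by the Benjamini-Hochberg method over all tested genes and called under 0.05. Levels are TMM-scaled CPM, and log2 changes are fitted values. A gene at 0 counts in a group has its fold computed against 3 counts over the group, and 1 to 3 counts give a ratio with a 95% interval. Both cover counting error only. The fit was tested on simulated data.

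Named genes are the targets and their relatives, the 15 largest called increases and decreases with at least 5 CPM in the higher group and no overlap between libraries, and up to 4 called members of each of 47 gene lists with the smallest adjusted p. Other members were named after their values were seen, as were the neighbouring genes. Some genes that the rule takes are not reported here. The members and lists were chosen with earlier results of these data known. Alternatives were other normalizations, filters, DESeq2 1.42.0, a replicate block, the 4 libraries alone and leaving out each library.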

Additional observations from a re-analysis of the deposited data

How the results depend on the processing

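The direct comparison called 2166 genes higher and 2190 lower. With 1 of the 4 libraries left out, 1257 to 1455 were higher and 1294 to 1483 lower, a lone library being assumed to vary like the other groups, so fewer samples entered each fit. Against WT, sgKDM6A had 1098 to 2286 higher and 1397 to 2425 lower, and sgKMT2B 1097 to 2365 higher and 1275 to 2422 lower, when a library of either group was left out. The total in the direct comparison was 5152 with the 4 libraries alone, 4268 with DESeq2, 4363 with its size factors, 4350 with upper-quartile factors, 4691 with no filter on 32433 genes, and 4113 at a mean of at least 1 CPM. The cause of these differences was not tested.

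Samples that share a replicate number are not stated to share a culture. The deviations of same-numbered sgKDM6A and sgKMT2B libraries from their group means correlated at r = 0.0826 across all tested genes and 0.308 across those averaging 5 CPM or more. The fit with the replicate number as a block called 4966 genes, 4334 of them among the 4356.

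Of 185 named genes, 0 reversed under any alternative, 165 kept their side of the threshold under each one that tested them, and 20 lost their call at least once, in each case with a library left out. At the depth of the 4 libraries, 3 counts in 1 library correspond to 0.107 to 0.121 CPM, and lower levels rest on 1 or 2 counts in a library.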
